A study of Mus musculus with 133 samples.

Results

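The genes of the mitotic spindle and the kinetochore were followed across mammary tumours of 1 mouse cross. The set was a written list of 37 genes of mitosis, and all 37 were measured among the 19938 genes that the arrays named. The list covered cyclins and Cdk1 with their regulators, mitotic kinases, the chromosomal passenger complex, centromere and kinetochore proteins, spindle motors, spindle assembly factors, cytokinesis factors and proteins of chromosome structure. Each gene was read from its single-gene probeset of highest mean, and Top2a and Depdc1a had more than 1 such probeset to choose from. No filter on low values was applied to the main values.

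The 133 arrays held RNA from mammary tumours induced by the PyMT transgene in a cross between Diversity Outcross and PyMT mice. All arrays formed 1 group, with no treatment, and the labels used here gave no age, genotype or metastasis for an animal. PyMT is the middle T antigen of polyoma virus, which the MMTV promoter drives in mammary epithelium, so that every tumour shared its driver while the inherited background differed between animals. Whole tumours were harvested near the humane endpoint, and a tumour therefore also held stroma, vessels and immune cells. Titles took 2 forms, a running number (48 animals, "numbered") or a name (79 animals, "named"), which were treated as a possible batch. The 6 arrays whose title ended in r were left out, which gave 1 tumour from each of these 48 and 79 animals. Levels are log2 values. Each gene was centred on the mean of its own title series for the mitotic level and for correlations. Absolute log2 levels of single animals are quoted without centring.

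A cell enters mitosis when cyclin and Cdk1 activity rises, builds a bipolar spindle from microtubules and motor proteins, and attaches each chromosome to it through the kinetochore, the protein plate on the centromere. The spindle checkpoint, with Bub1, Bub1b and Ttk, holds the cell until all kinetochores are attached, and Cdc20 then switches on the ubiquitin ligase that starts anaphase. The RNA of most of these genes is made late in the cell cycle and is nearly absent from resting cells, which is why such genes stand high in tumours with many dividing cells. In RNA of a whole tumour, a smaller share of dividing cells and less RNA per dividing cell cannot be told apart.

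Promoters of late cell cycle genes are known for a short element, the cell cycle genes homology region or CHR, and for CCAAT boxes, which the factor NF-Y binds. Windows from 250 bases before to 50 bases after the annotated start (RefSeq, GRCm38.p6) were available for 31 members, as 34 windows. They were searched on both strands for the CHR core TTTGAA or its form TTCGAA, for the box CCAAT, for the E2F core TTCCCGC or its form TTGGCGC, and for the TATA box, spelt TATAAA. Read on the other strand, the CCAAT box can share letters with the second E2F core. A CHR core was present in 27 of 34 member windows (79.4%) and in 19.2% of the 32851 windows of all genes. A CCAAT box was present in 24 member windows (70.6%) and in 37.4% of all windows, and 22 member windows (64.7%) held both, against 7.5% of all. An E2F core stood in 6 member windows (17.6%, against 6.8% of all) and a TATA box in 1 (2.9%, against 13.6%). The median GC content was 59.8% in member windows and 52.7% in all windows. The 47 CCAAT matches lay at a median of 65 bases before the start and 32 of them fell in the last 100 bases before it, while 17 of the 37 CHR matches lay after the start. Prc1, Cep55 and Ect2 had 2 overlapping windows each, and a match in both was counted once for each window. A match is a run of letters and was not tested as a binding site.

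The windows below belong to the 3 members that followed the others most closely and the 3 that followed them least, among those with 1 window, and to Mki67, the reference gene of the regression. They are written 5′ to 3′ along the gene in lower case, with every motif match in capitals.
Kif11, chr19:37376132-37376431, plus strand: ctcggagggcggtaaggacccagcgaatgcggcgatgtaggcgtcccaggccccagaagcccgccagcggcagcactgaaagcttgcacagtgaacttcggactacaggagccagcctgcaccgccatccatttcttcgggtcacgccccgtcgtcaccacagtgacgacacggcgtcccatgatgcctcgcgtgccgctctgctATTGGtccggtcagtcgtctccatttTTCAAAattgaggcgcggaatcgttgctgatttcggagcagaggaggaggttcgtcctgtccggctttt
Bub1, chr2:127831810-127832109, minus strand: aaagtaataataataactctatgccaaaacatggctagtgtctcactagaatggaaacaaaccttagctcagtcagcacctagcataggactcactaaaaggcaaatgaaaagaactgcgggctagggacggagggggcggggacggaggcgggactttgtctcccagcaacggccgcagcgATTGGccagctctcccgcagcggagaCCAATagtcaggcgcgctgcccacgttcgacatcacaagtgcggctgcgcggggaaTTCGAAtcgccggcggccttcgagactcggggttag
Anln, chr9:22389157-22389456, minus strand: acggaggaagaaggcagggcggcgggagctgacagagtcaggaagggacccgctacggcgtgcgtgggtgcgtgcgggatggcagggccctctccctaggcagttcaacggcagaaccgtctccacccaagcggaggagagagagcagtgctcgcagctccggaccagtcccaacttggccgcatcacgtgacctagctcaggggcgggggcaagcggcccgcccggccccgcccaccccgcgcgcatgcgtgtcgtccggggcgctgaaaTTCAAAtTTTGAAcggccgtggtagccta
Cenpf, chr1:189688037-189688336, minus strand: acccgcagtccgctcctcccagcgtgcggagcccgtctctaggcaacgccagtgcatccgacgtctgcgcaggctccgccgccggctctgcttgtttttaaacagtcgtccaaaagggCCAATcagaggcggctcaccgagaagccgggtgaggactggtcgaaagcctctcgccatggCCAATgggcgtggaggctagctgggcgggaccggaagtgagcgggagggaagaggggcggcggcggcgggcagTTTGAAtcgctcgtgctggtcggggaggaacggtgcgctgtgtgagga
Ndc80, chr17:71526808-71527107, minus strand: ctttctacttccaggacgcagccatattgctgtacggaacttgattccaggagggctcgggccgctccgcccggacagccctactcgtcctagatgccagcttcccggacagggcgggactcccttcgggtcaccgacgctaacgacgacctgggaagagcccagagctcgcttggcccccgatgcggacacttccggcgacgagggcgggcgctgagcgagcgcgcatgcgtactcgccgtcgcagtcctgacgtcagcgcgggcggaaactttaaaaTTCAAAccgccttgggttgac
Birc5, chr11:117848987-117849286, plus strand: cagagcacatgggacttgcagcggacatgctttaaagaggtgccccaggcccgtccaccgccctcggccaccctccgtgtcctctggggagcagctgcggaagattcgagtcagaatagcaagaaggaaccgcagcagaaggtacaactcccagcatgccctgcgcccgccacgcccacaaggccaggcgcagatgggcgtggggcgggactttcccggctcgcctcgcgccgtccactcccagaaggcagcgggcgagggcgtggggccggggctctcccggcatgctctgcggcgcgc
Mki67, chr7:135716330-135716629, minus strand: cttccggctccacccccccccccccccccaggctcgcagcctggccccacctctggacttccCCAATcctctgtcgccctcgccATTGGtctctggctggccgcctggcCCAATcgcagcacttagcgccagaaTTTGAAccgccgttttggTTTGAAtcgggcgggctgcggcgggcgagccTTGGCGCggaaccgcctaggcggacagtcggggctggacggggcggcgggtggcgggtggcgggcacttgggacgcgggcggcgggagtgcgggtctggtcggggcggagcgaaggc

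Kif11 and Bub1, close followers of the other members, each held a CHR core and at least 1 CCAAT box in this window, and Anln held 2 CHR cores side by side and no CCAAT box. Among the loose followers Cenpf held a CHR core and 2 CCAAT boxes and Ndc80 a CHR core alone. The Birc5 window held none of these motifs. Top2a, whose product untangles chromosomes, had the most matches of any single window, with 4 CHR cores and 6 CCAAT boxes. Both kinds of motif were absent from the windows of Melk, Birc5, Nuf2, Nusap1 and Ncaph.

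Before the results, 4 arrays have to be named, those of animals 14312, 14320, 14095 and 14094, which correlated least on average with the remaining arrays (0.906, 0.917, 0.944 and 0.945). The next array, of animal 14352, was close behind at 0.9453, and that of animal 14050 followed at 0.962. These 2 animals were also the ones with a further array of title suffix r, and their values are given where a member's highest level came from them. Animals 14095 and 14094 also had the lowest levels of nearly all members. In both of them the genes of a salivary gland list of 10 genes stood 6.21 and 6.07 log2 units above the mean of their series, while the tumours outside these 4 ranged from -0.96 to 2.88. Muc19, a gel-forming mucin of salivary glands, read 13.0 in both against a median of 4.67, and its highest value in the tumours outside the 4 was 5.03. Of the 10 salivary genes, 5 were higher in both animals than in every other tumour. The mean of the luminal epithelium list was lowest in the same animals, at -0.75 and -1.08 against -0.64 to 0.41 in the tumours outside the 4. Krt8, a keratin of luminal cells, read 10.98 and 10.68, below its lowest value of 11.25 outside the 4 (median 12.1). Animal 14094 also had the highest B cell list mean (3.36, against at most 2.54 outside the 4). The part of these other cells in the low mitotic levels was not tested, and the main results below are given without the 4 arrays as well. Epcam and Krt18, which mark epithelium, read at least 10.35 in every tumour.

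The mitotic level of a tumour was taken as the mean of its 37 centred members. It ran from -2.70 in animal 14095 to 0.85 in animal 14291, a range of 3.55 log2 units or 11.7-fold, with an SD of 0.41 (48 numbered and 79 named tumours). The quartiles lay at -0.11 and 0.17, a 1.22-fold span. The next lowest levels were -2.02 in animal 14094 and -0.93 in animal 13973. Without the 4 arrays the range was 1.78 log2 units (3.44-fold) and the SD 0.28 (47 numbered and 76 named tumours). Of all tumours 6 lay more than 0.5 above their series mean and 7 more than 0.5 below it, and every other tumour lay within that band. Most tumours lay close together, and the width of the range rested mainly on 2 animals at the low end.

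In some single tumours the members moved as a block. All 37 lay above their series mean in 16 tumours and all 37 below it in 13, while every other tumour held members on both sides. In animal 14291, the highest tumour, the centred members ran from 0.44 (Aurkb) to 1.33 (Mastl), and 17 of the 37 members reached their highest centred value of all tumours there. In animal 13973, the lowest tumour outside the 4 arrays, they ran from -1.18 (Ect2) to -0.55 (Incenp). In animal 14095 the centred value was the lowest of all tumours for 34 members, and in animal 14094 for the other 3. Both animals were lower than every other tumour in 35 of the 37 members.

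**Figure D1:**
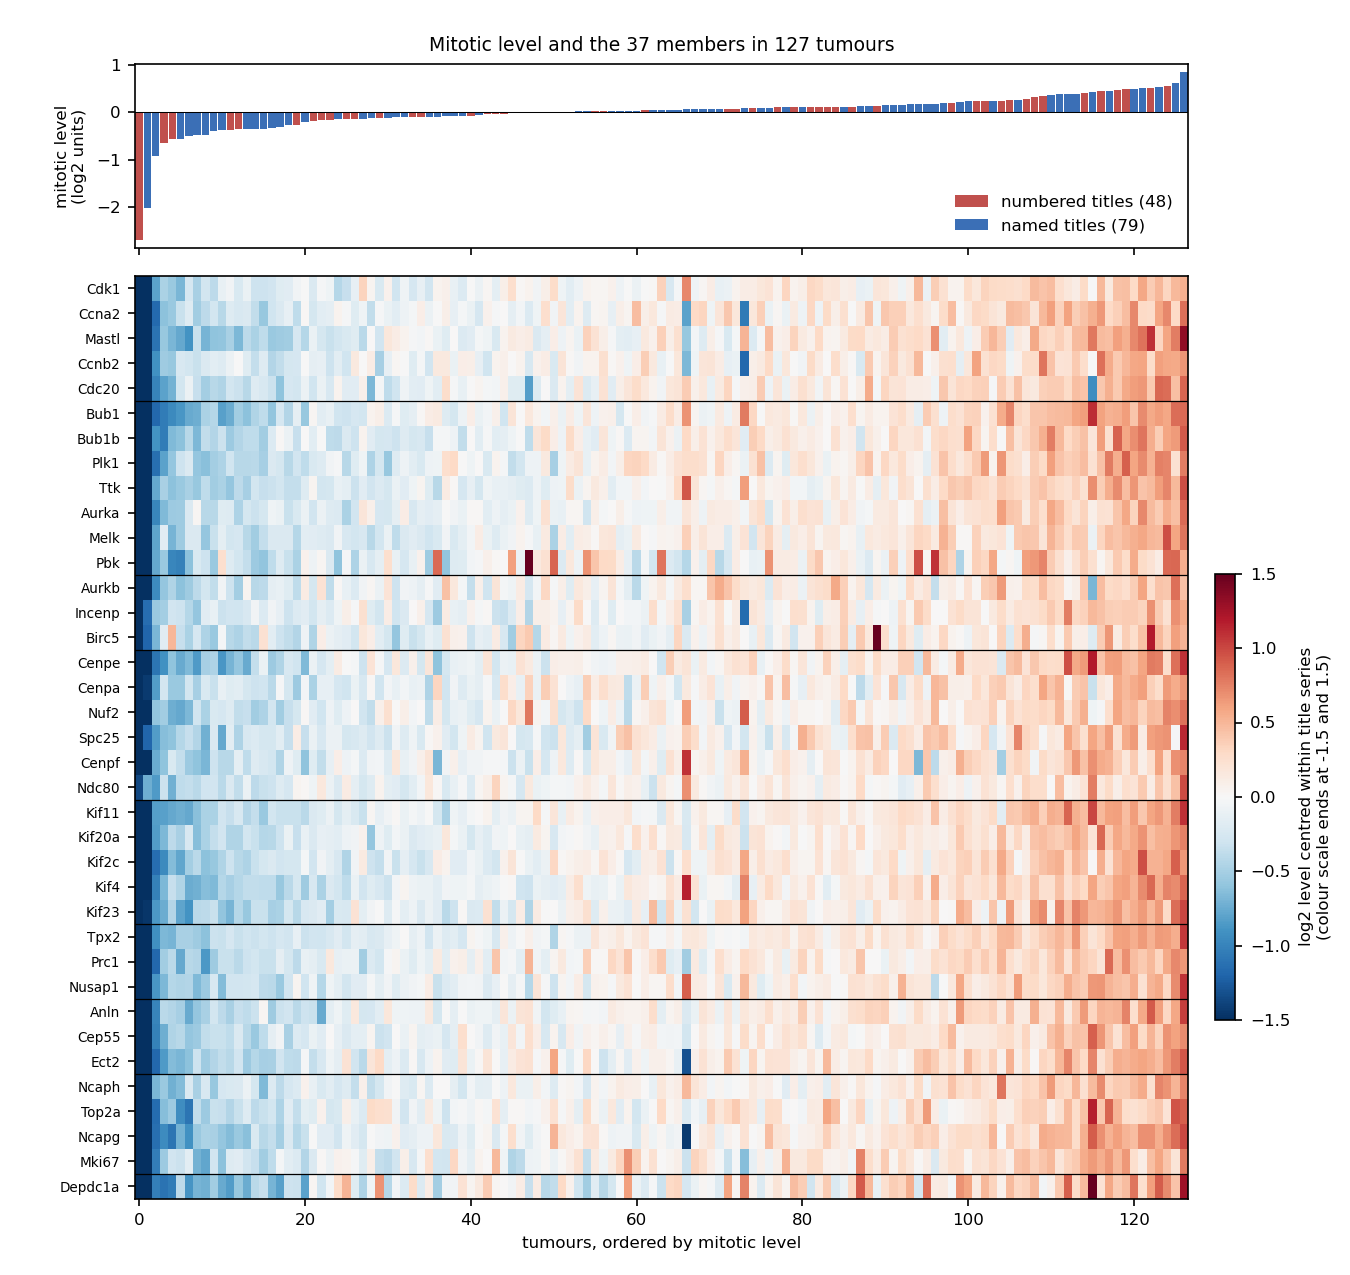
Top, mitotic level (mean of the 37 centred members, log2 units) of 48 numbered and 79 named tumours as bars, with numbered titles in red and named titles in blue. Bottom, the centred log2 level of each member (rows, by role) in the same tumours (columns, by rising mitotic level), where the columns turn from blue to red together and the 2 lowest tumours, at -2.70 and -2.02, stand apart.

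Animals 14312 and 14320 behaved differently. Their mitotic levels were close to the series mean, at 0.09 and 0.06, but their members disagreed with each other, with an SD over members of 0.50 and 0.61 against a median of 0.17 (range 0.073 to 0.52) in the tumours outside the 4. In animal 14320 the condensin subunit Ncapg was 1.43 log2 units under its series mean and the cytokinesis factor Ect2 was at -1.31, while the chromokinesin Kif4 was 1.15 above it and Cenpf 1.08 above it. In animal 14312 the cyclin gene Ccnb2 (-1.17) and Incenp (-1.15) were low and Nuf2 (0.90) and Bub1 (0.78) high. Animal 14352 also had members far apart, with an SD over members of 0.52, from Cdc20 at -0.93 to Depdc1a at 1.58, and held the highest level of Bub1, Cenpe, Top2a and Depdc1a. The cause was not tested.

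The question of which members vary together was put to all 666 pairs. Pearson's r was above 0 in 666 pairs, with a mean of 0.798 and a range from 0.489 to 0.945. The permutation test (100000 draws within title series, 2-sided, Benjamini-Hochberg over the 666 pairs) passed at 0.05 for 666 pairs by r (largest adjusted p 2e-05) and for 666 pairs by Spearman's rho (largest adjusted p 0.00087), whose mean was 0.674. The smallest p that these permutations can give is 1e-05. Pairs of genes outside the list were not tested, so no share over all genes can be set beside these counts. The list holds genes of mitosis and was chosen with earlier results of these data known. The counts therefore add no separate support that its members vary together. Within title series, mean r was 0.874 (numbered) and 0.742 (named). It was 0.705 without the 4 arrays, where the lowest pair fell to 0.19, and 0.672 when the 2 tumours with the most extreme levels were dropped. By r in all tumours the tightest pair was Plk1, the polo-like kinase, with Tpx2, a spindle assembly factor that activates Aurka (r = 0.945, rho = 0.857; r = 0.874 without the 4 arrays). Other pairs held the highest rho (0.887) and the highest r without the 4 arrays (0.909). The loosest was Pbk with Cenpf (r = 0.489, rho = 0.297; r = 0.19 without the 4 arrays), which reached 0.835 among numbered but 0.29 among named titles.

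Each member was then set against the mean of the other 36, as a description with no test. The median r of the members was 0.906 and the lowest 0.692. Of the 19901 genes outside the list, 185 (0.93%) correlated with the mitotic level at or above that lowest r, and without the 4 arrays 402 (2.02%) reached the lowest member's 0.564. The median over those other genes was -0.02.

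The median r was 0.933 for the cytokinesis factors, 0.931 for the spindle assembly factors and 0.928 for the spindle motors, and 0.882, 0.878 and 0.915 without the 4 arrays. Among single members Tpx2 had the highest r (0.972, rho = 0.93, and 0.94 without the 4 arrays). Its log2 level was 5.40 in animal 14095, 5.63 in animal 14094, at least 7.20 in all others, at a median of 8.27, and 9.17 in animal 14291. Kif11, the motor that pushes spindle poles apart, came second (r = 0.964, and 0.929 without the 4 arrays). Its levels were 5.08 and 5.96 in those 2 animals and 7.82 to 9.74 in all others. Kif20a, a motor of the central spindle, had r = 0.955, and Kif2c, which takes microtubules apart, 0.928. Prc1, which bundles the microtubules of the central spindle, had 0.931, and Nusap1, a microtubule binding protein, 0.921. Kif4 moved from 0.888 to 0.926 once the 4 arrays were left out. The motor with the lowest r was Kif23, which works in cytokinesis (0.884).

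The 3 cytokinesis factors lay close together. Anln, a scaffold of the contractile ring, had r = 0.944, Cep55, which acts at the abscission site, 0.933, and Ect2, which activates RhoA for the ring, 0.915. Their levels spanned 4.91 to 9.02, 4.37 to 7.26 and 5.49 to 9.55 log2 units over the tumours.

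The mitotic kinases divided. The checkpoint kinases Bub1 (0.946), Bub1b (0.938) and Ttk (0.912) and the kinases Plk1 (0.938), Aurka (0.908) and Melk (0.891) lay in a narrow band. Pbk was the exception (r = 0.792, rho = 0.604). Its level was 4.65 and 5.37 in the 2 lowest animals and 7.19 to 9.77 elsewhere, and its highest value came from animal 14050, ahead of animals 14306 (9.29) and 14198 (9.21). Its r was 0.935 among numbered and 0.671 among named titles, 0.572 without the 4 arrays and 0.615 without animals 14352 and 14050 as well.

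Cdk1 had r = 0.916, Ccna2 (cyclin A2) 0.906, Mastl, the kinase that blocks the phosphatase opposing Cdk1, 0.897, Ccnb2 (cyclin B2) 0.877 and Cdc20 0.870. Ccna2 showed the widest drop of these, from a median of 10.37 to 6.08 in animal 14095 and 7.65 in animal 14094.

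The chromosomal passenger complex had the lowest median r of the roles (0.812). This complex corrects wrong attachments at the kinetochore and later works in the cleavage furrow. Aurkb, its kinase, had r = 0.856, Incenp, its scaffold, 0.812 and Birc5 (survivin) 0.692, the lowest of the 37 by r in all tumours. By rho Pbk was lower (0.60, against 0.62 for Birc5). Among numbered titles Birc5 had r = 0.64, and among named titles 0.76, where Pbk was lowest (0.67). The mean r within this complex was 0.666, against 0.71 to members of other roles. Birc5 had levels from 5.72 to 9.51 with a median of 7.16. Its highest values came from animal 14089 (9.51) and animal 14141 (8.92), followed by 8.28 in animal 13976. Thus a pair of numbered tumours had Birc5 well above the rest, and the centred value of animal 14089 was 1.78. Without the 4 arrays r was 0.564 for Birc5, 0.694 for Aurkb and 0.806 for Incenp.

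Among the centromere and kinetochore genes, Cenpe, a kinetochore motor, followed most closely (r = 0.913). Cenpa, the histone variant that marks centromeres, had 0.869. The NDC80 complex, which binds microtubules, was looser, with Nuf2 at 0.852, Spc25 at 0.821 and Ndc80 at 0.813, and Cenpf was at 0.819. Ndc80 had the smallest spread of all members (SD 0.28 of centred values, levels 5.73 to 7.56). Its lowest uncentred value lay in animal 13973 (5.73), below animals 14095 (5.77) and 14094 (5.85). The mean of Ndc80 was lower in named titles, which include animal 13973, than in numbered titles (6.58 against 7.13). Centred within series, its lowest value was -1.36, in animal 14095.

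Of the chromosome proteins, the condensin subunits Ncaph and Ncapg had r = 0.936 and 0.901, Top2a 0.907 and Mki67, which coats mitotic chromosomes and is the gene of the Ki67 antigen, 0.883. Without the 4 arrays Ncapg was at 0.929 and stood in the third place, while Mki67 stood at 0.774. Depdc1a had r = 0.840 and, after Pbk, the second largest SD (0.58).

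**Figure D2:**
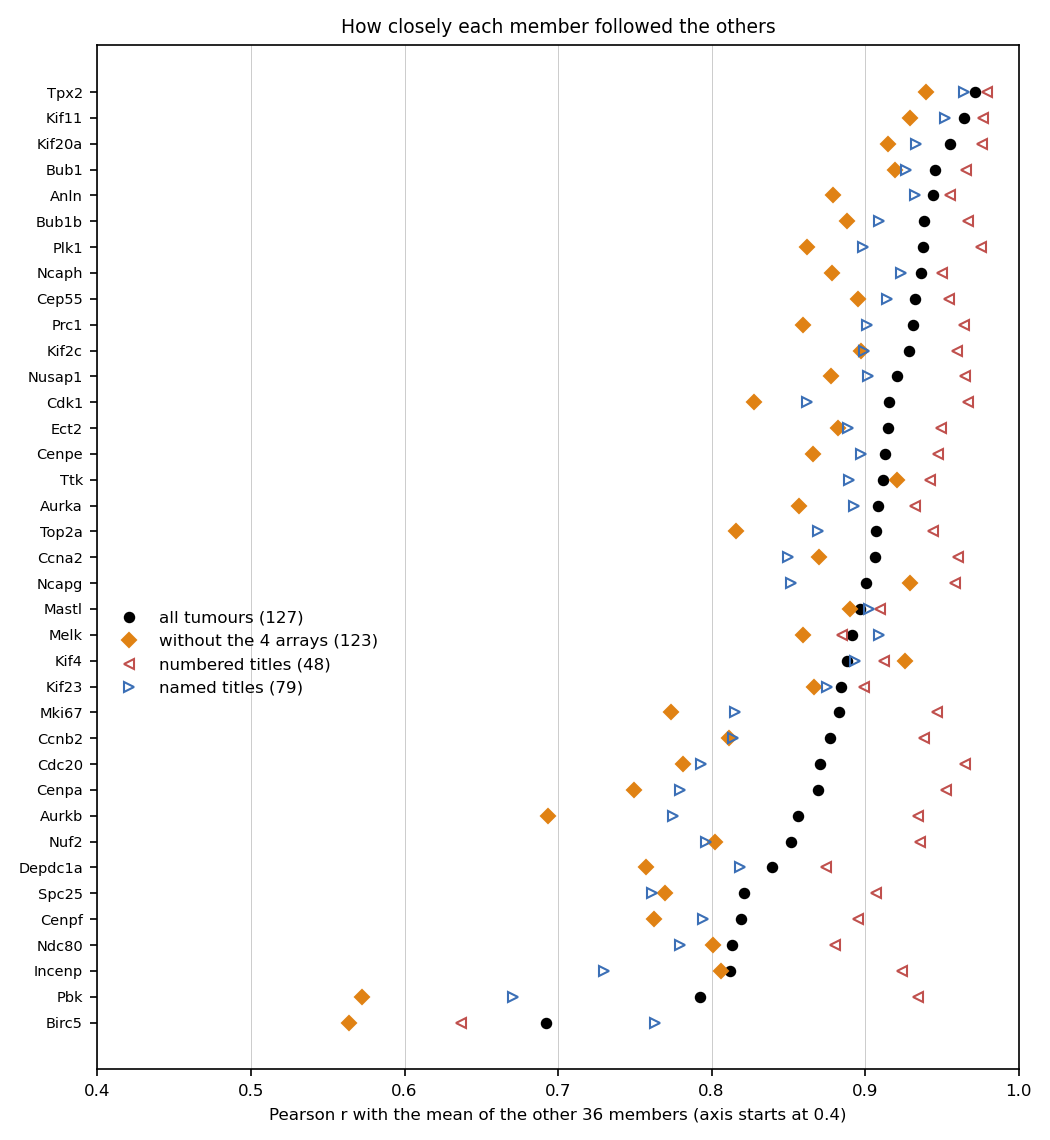
Pearson r of each member (rows) with the mean of the other 36 members in all tumours (black), without the 4 arrays of lowest mean correlation (orange), in numbered (red) and in named titles (blue). Tpx2 (0.972) is at the top and Birc5 (0.692) at the bottom, and Pbk and Birc5 fall below 0.6 without the 4 arrays.

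Smaller ties remained once the shared level was taken out. For each pair, the mean of the other 35 members was regressed from both genes without the 4 arrays (47 numbered and 76 named tumours), and the residuals were correlated, as a description. This partial r had a median of 0.03 and ran from -0.591 to 0.64, with 10 pairs above 0.5 and 6 below -0.5. The highest values belonged to Cenpe with Cenpf (0.64, and 0.472 and 0.686 in numbered and named titles), Pbk with Nuf2 (0.634, 0.263 and 0.709), Cenpe with Depdc1a (0.629, 0.508 and 0.675), Pbk with Cenpa (0.61, 0.295 and 0.678), Cdk1 with Kif2c (0.588, 0.451 and 0.622) and Cdc20 with Plk1 (0.585, 0.415 and 0.617). The lowest belonged to Cenpa with Depdc1a (-0.591, -0.45 and -0.649), Cdk1 with Depdc1a (-0.535, -0.401 and -0.587) and Pbk with Nusap1 (-0.515, -0.241 and -0.581). Cenpe was thus tied to both Cenpf and Depdc1a, Pbk to both Nuf2 and Cenpa, and Depdc1a ran against Cenpa and Cdk1. Without animals 14352 and 14050 as well these 9 values lay between 0.559 and 0.669 for the 6 positive pairs and between -0.541 and -0.474 for the 3 negative ones. These pairs had the same sign in both title series, as had 426 of all 666.

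Mki67 was then used as the reference for a test across all genes. Its level was 5.61 in animal 14095, 7.65 in animal 14094, 8.70 to 10.5 in the others, and 9.74 at the median. With limma, title series as a term and Benjamini-Hochberg over 19937 genes, all 36 other members rose with Mki67, beside 16.5% of all genes rising and 17.3% falling. Mki67 is itself a member, and its pairs with the other 36 had already passed on the same arrays. The list was also chosen with earlier results of these data known, so this count adds no separate support. The median slope was 0.68 log2 units per log2 unit of Mki67 for the members and -0.02 for all genes. Without the 4 arrays 36 of 36 rose again, beside 11.2% of genes rising and 10.8% falling, with a median of 0.68. The steepest was Ccna2, at 0.97 (SE 0.041, limma adjusted p = 9e-45). Kif11 and Plk1 had slopes of 0.93 each and Prc1 0.87. The flattest were Ndc80 at 0.39 (SE 0.034, limma adjusted p = 5.62e-19), Birc5 at 0.47 and Nuf2 at 0.48. Without the 4 arrays the steepest was Depdc1a (0.99) and the flattest Pbk (0.40, SE 0.11, limma adjusted p = 0.0043), and Ccna2 had a slope of 0.71.

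**Figure D3:**
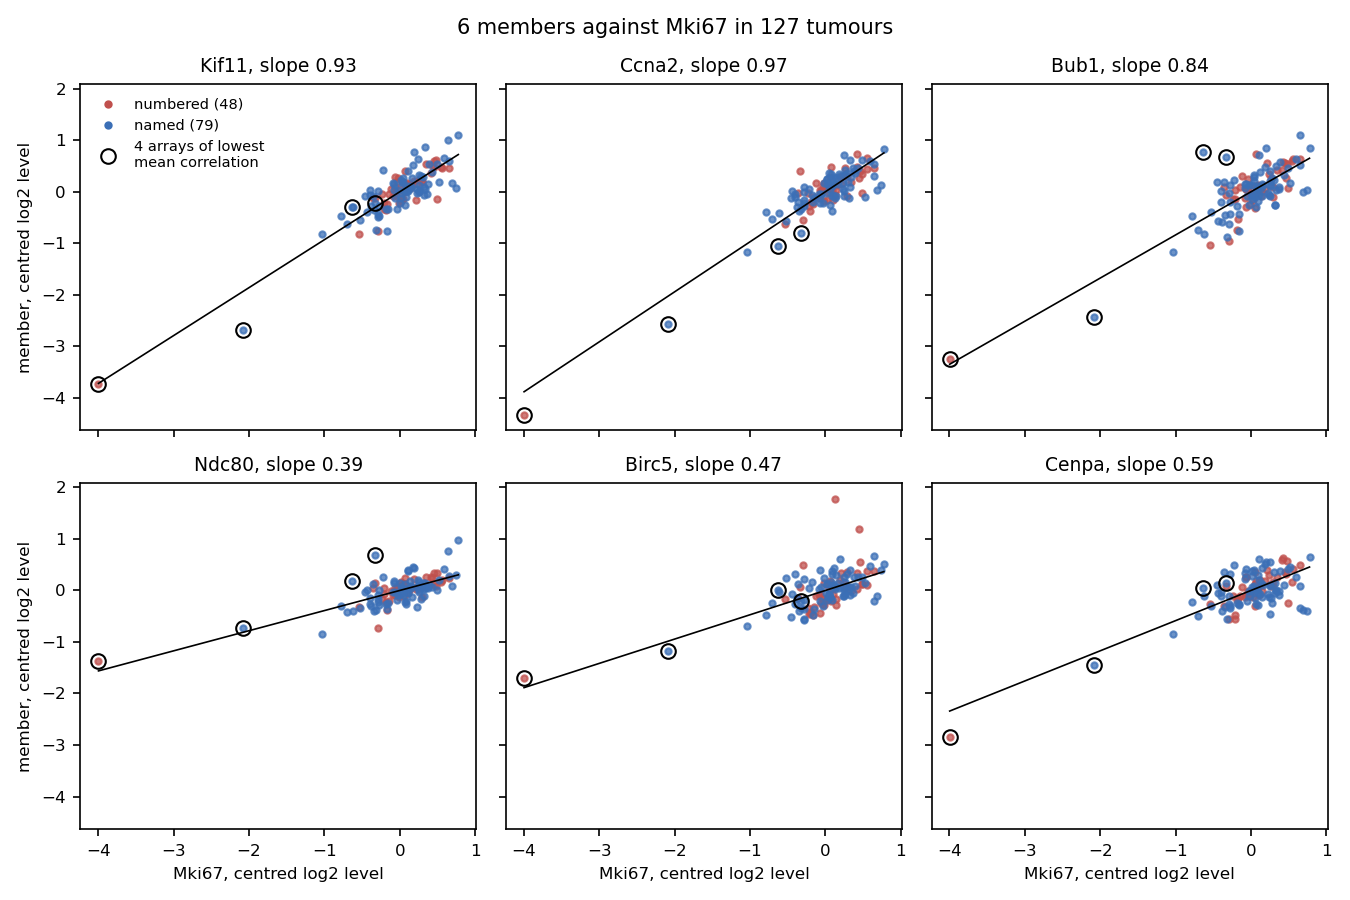
Centred log2 level of 6 members against that of Mki67 in all tumours, numbered titles in red and named titles in blue, with the fitted limma slope as a line and the 4 arrays of lowest mean correlation ringed. The points of Kif11 (slope 0.93) and Ccna2 (0.97) hug a steep line, those of Ndc80 (0.39) a flat one, and 2 numbered tumours stand above the line for Birc5.

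The slope itself was compared between title series. Of the 36 members 1 differed, Cenpa, at 0.72 (numbered) and 0.41 (named) (difference 0.31, SE 0.091, limma adjusted p = 0.0432), beside 2.73% of all genes. Without the 4 arrays neither Cenpa (difference 0.42, limma adjusted p = 0.768) nor any other gene passed, while 1088 of 19937 genes had an unadjusted p under 0.05, 12 of the 36 members among them.

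The levels of members also differed between title series. Here 17 members were higher in the numbered titles and 2 lower, beside 69.6% of all genes higher and 5.72% lower, and the median difference was 0.18 for members and 0.18 for all genes. With the 4 arrays left out, 27 members were higher and 2 lower, beside 73% of all genes higher and 5.91% lower. After quantile normalization across the arrays 8 were higher and 9 lower, beside 27.3% and 33% of all genes, and the median difference of members was -0.04. Birc5 was higher in the numbered titles by both, at 7.73 against 6.91 (difference 0.83, SE 0.069, limma adjusted p = 1.41e-21) and a difference of 0.61 after quantile normalization. Ndc80 was higher as well (7.13 against 6.58, difference 0.55, limma adjusted p = 3.02e-18). Kif2c and Kif4 were the 2 lower members, with differences of -0.19 and -0.18. Title series and any difference between the animals of the 2 series cannot be told apart. The mitotic level and correlations were therefore taken on centred values and slopes with series as a term. Absolute log2 levels of single animals were not adjusted for series.

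Genes of neighbouring processes were read from lists. The counts of all lists stand beside 16.5% of all genes rising and 17.3% falling, or 11.2% and 10.8% without the 4 arrays. Of 78 other mitosis genes measured, 75 rose with Mki67 and 1 fell, at a median slope of 0.44 (73 and 0 without the 4 arrays). Knl1, the kinetochore scaffold on which Bub1 docks, was the gene outside the 37 most like them (r = 0.957, slope 0.73, SE 0.041, limma adjusted p = 6.52e-33), followed by Dlgap5, which stabilises spindle fibres (r = 0.92), Zwilch of the kinetochore (0.912), Cenpn of the centromere (0.911) and the condensin ATPase Smc2 (0.905). The remaining genes of the 10 most alike were Cip2a, Parpbp, Sgo1, Aspm and Cdca2, at 0.894 to 0.903. These 10 were picked by r with a mean that holds Mki67, so the slope of Knl1 on Mki67 adds no separate support. The exceptions were Ckap4, whose product is a membrane protein of the endoplasmic reticulum and which fell (slope -0.21, and -0.13 without a call when the 4 arrays were left out), and Mis12 and Zw10, which did not pass the test.

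Of 62 genes of DNA replication and the G1/S step, 61 rose (57 without the 4 arrays), at a median slope of 0.35. Dtl, which targets the licensing factor Cdt1 for destruction, had r = 0.89, the repressor E2f8 0.869, Topbp1, which activates the checkpoint kinase Atr, 0.858 and Uhrf1, which keeps DNA methylation after replication, 0.857. Gins4 was the gene that did not pass. Of 17 homologous recombination and Fanconi genes 15 rose (16 without the 4 arrays), led by the checkpoint kinase gene Chek1 (r = 0.837) and by Fancd2 (0.832), Fanci (0.829) and the helicase gene Blm (0.81).

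The genes that govern G1 did not move as a block. Of 19 cyclins, Cdk inhibitors and pocket proteins 8 rose and 1 fell, and 3 rose and 1 fell without the 4 arrays. The pocket protein gene Rbl1 rose (slope 0.33, limma adjusted p = 8.13e-13) and its relative Rbl2, whose product holds cells in quiescence, fell (slope -0.19, limma adjusted p = 6.36e-05), and both calls held without the 4 arrays (0.31 and -0.18). Cdk2 rose (0.19) in both fits. Cdk4 rose at 0.22, but without the 4 arrays its slope was 0.10 and did not pass. Ccnd1, the D-type cyclin of mammary epithelium, had a slope of 0.21 with the 4 arrays and 0.01 without them.

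Among housekeeping lists, 20 of 25 proteasome subunit genes rose (11 without the 4 arrays), at a median slope of 0.11, with Psma7 (r = 0.645) and Psma4 (0.644) the most alike. Of 27 oxidative phosphorylation genes 2 rose, and 10 rose and 1 fell without the 4 arrays. Of 18 glycolysis and hypoxia genes 9 rose and 1 fell, against 3 and 0 without the 4 arrays. Pgam1 (slope 0.21) and Tpi1 (0.17), both enzymes of glycolysis, rose in both fits, whereas Ldha had slopes of 0.19 and 0.08 and Pfkl 0.25 and -0.04, with calls in the first fit only.

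The marker lists of other cell types changed most with the 4 arrays. Over all genes 16.5% rose and 17.3% fell, and 11.2% rose and 10.8% fell without the 4 arrays. With all tumours the falling share was 18.2% for macrophage and for fibroblast genes and 12.5% for neutrophil genes, near that of all genes. Of 10 salivary gland genes 9 fell with Mki67, with Muc19 at -1.49 and Smgc at -1.47, and 0 fell without the 4 arrays (limma, 0 at an unadjusted p under 0.05), where Muc19 had a slope of 0.003 and Smgc of 0.01. T and NK cell genes fell in 9 of 10 cases and in 1 of 10 without the 4 arrays, and B cell genes in 6 of 7 and in 0 of 7 (0 at an unadjusted p under 0.05 by limma). Fibroblast genes went the other way. With all tumours 2 of 11 fell, and without the 4 arrays 10 of 11 fell, at a median slope of -0.53 beside -0.02 for all genes. Dcn, a matrix proteoglycan, had -0.56 and -0.96 in the 2 fits, Pdgfra, a receptor of fibroblasts, -0.27 and -0.71, and Postn, a matrix protein, 0.12 and -0.53. Endothelial genes fell in 4 of 10 and 5 of 10 cases, led by Vwf (slope -0.36, and -0.22 without the 4 arrays). Of 11 macrophage genes 1 rose and 2 fell (0 and 2 without the 4 arrays), and the receptor gene Csf1r fell in both fits (-0.25 and -0.51). Luminal genes rose in 5 of 9 and 3 of 9 cases, with Krt8 at 0.31 and 0.25 and Elf5, a factor of secretory luminal cells, at 0.38 and 0.34. Milk genes rose in 6 of 8 and 1 of 8 cases, the latter Wap (0.97 and 0.77). Myoepithelial genes fell in 3 of 8 and 1 of 8 cases, neutrophil genes in 1 of 8 and 0 of 8 (1 at an unadjusted p under 0.05 by limma) and adipocyte genes in 0 of 8 (1 at an unadjusted p under 0.05) and 1 of 8. No call was made among 9 interferon response genes in either limma fit (4 had an unadjusted p under 0.05 with all tumours and 1 without the 4 arrays), nor among 9 skeletal muscle genes (0 and 0).

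**Figure D4:**
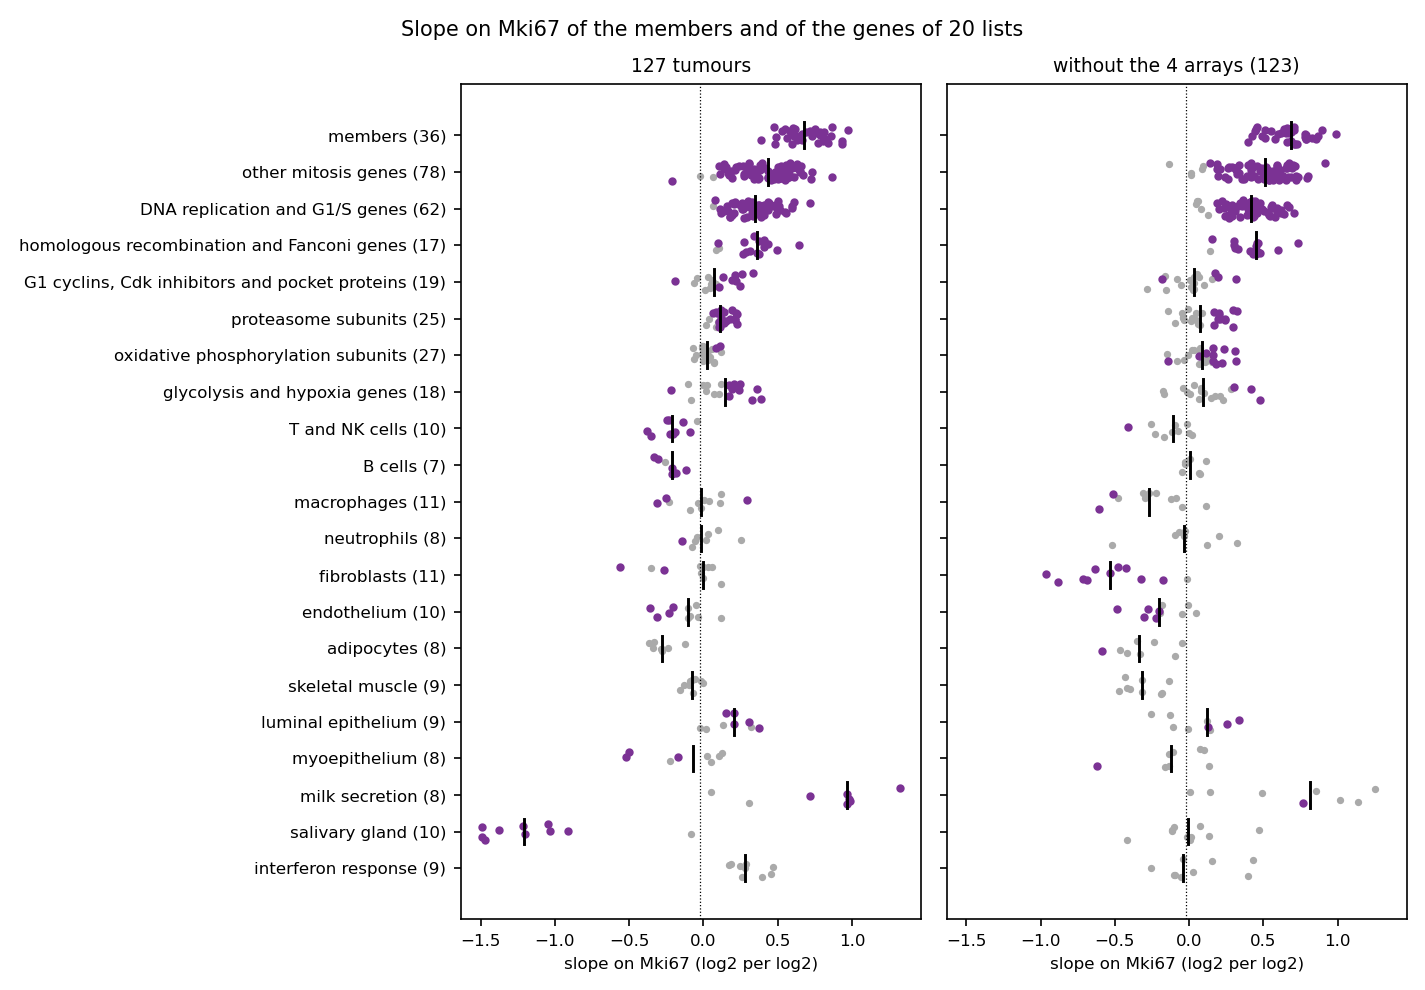
Slope on Mki67 (log2 units per log2 unit) of each member and each gene of 20 lists, left in all tumours and right without the 4 arrays, with genes past the adjusted threshold of 0.05 in purple, others in grey, list medians as bars and the median of all genes as a dotted line. Members, other mitosis and replication genes lie to the right in both panels, salivary gland genes to the left in the left panel only and fibroblast genes to the left in the right panel.

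Genes outside the members and outside the lists of mitosis, replication, recombination and G1 genes were then ranked by their r with the mitotic level. They had a mean level of at least 6 and the same sign in both series. A gene entered because none of these lists held it, whatever its function. The ranking used a mean that holds Mki67, on the same arrays as the limma fits. The slopes on Mki67 of the genes picked here and below, and their p-values, therefore add no separate support. The 15 highest ran from 0.833 to 0.903 and all of them rose with Mki67 in both fits. They were Cip2a, Cdkn3, Ticrr, Knstrn, Prr11, Esco2, Fbxo5, Arhgap19, Pclaf, Asf1b, Gpsm2, Rad18, Cks1b, Nasp and Ndc1. Several act in the cell cycle although no list held them. Cip2a is an inhibitor of the phosphatase PP2A, and its level was 5.62 and 5.68 in animals 14095 and 14094, 7.79 at the median and 8.39 in animal 14291. Ticrr starts replication forks, Esco2 acetylates cohesin, Fbxo5 restrains the anaphase ligase, Pclaf binds the replication clamp, and Asf1b and Nasp are histone chaperones. Ndc1 builds nuclear pores and Rad18 is a ubiquitin ligase of damage tolerance.

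The 15 lowest ran from -0.785 to -0.674. Crebl2, a relative of the CREB factors, was the most opposite (r = -0.785, rho = -0.664, slope -0.39, SE 0.037, limma adjusted p = 7.88e-17). It read 8.86 and 8.81 in animals 14095 and 14094, 7.34 at the median and 7.11 in animal 14291, and the relation remained without the 4 arrays (r = -0.635, slope -0.35, limma adjusted p = 5.82e-07). Dop1b, Pde4d, Tcea3, Agfg2, St3gal1, Pam, Dbp and Scnn1a also fell in both fits. Without the 4 arrays, however, their r lay between -0.545 (Pam) and -0.279 (Tcea3). None of them was among the 15 lowest when genes were ranked without those arrays, and Crebl2 alone kept such a place. Pam, an enzyme that amidates peptides, had slopes of -0.54 and -0.58, Dbp, a clock output factor, -0.58 and -0.28, and Scnn1a, a subunit of the epithelial sodium channel, -0.77 and -0.57. Fxyd2, Lman1l, Cracr2a, Cgref1, Slc2a13 and Myrip fell with all tumours and did not pass without the 4 arrays. Their r then lay between -0.34 and -0.06, so that their place in the ranking rested on those arrays.

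The ranking was therefore made again without the 4 arrays, a choice made after the data were seen. At the high end Diaph3 (r = 0.857, and 0.825 with all tumours), Stil (0.827 and 0.73) and Hells (0.793 and 0.826) came in. Dnajc9 came in as well (0.8, against 0.418 with all tumours), and Asf1b, Gpsm2, Rad18 and Cks1b dropped out. Rora, a nuclear receptor of the clock and of lipid metabolism, was then the most opposite gene (r = -0.687, slope -0.37, limma adjusted p = 6.6e-06). Its level was 7.95 in animal 14291, 7.80 in animal 14005, 8.88 in animal 13973 and 8.40 at the median, and it was 8.74 in animal 14095 and 8.79 in animal 14094. Itm2b, a membrane protein, came next (-0.675), before the long non-coding RNA gene Lncpint (-0.654) and Crebl2. The other 11 genes, at -0.63 to -0.575, were Clic6, Slc6a8, Notch3, Scara5, Phf1, Mylip, Lamb2, Zbtb4, Mapre3, Zbtb20 and Acvrl1, and each of the 15 fell with Mki67 in this fit. Of them Notch3, a receptor of mural cells, and Lamb2, a laminin of basement membranes, are also genes of stroma and vessels, and 10 of 11 fibroblast and 5 of 10 endothelial genes fell in the same fit. The part of those cells was not tested. With all tumours Itm2b (r = -0.231), Clic6 (-0.079), Slc6a8 (-0.273), Notch3 (0.053), Lamb2 (-0.233), Zbtb4 (-0.39) and Acvrl1 (-0.224) did not pass by limma. Their place among these 15 lowest thus depended on leaving the 4 arrays out, while the rest fell with all tumours as well.

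**Figure D5:**
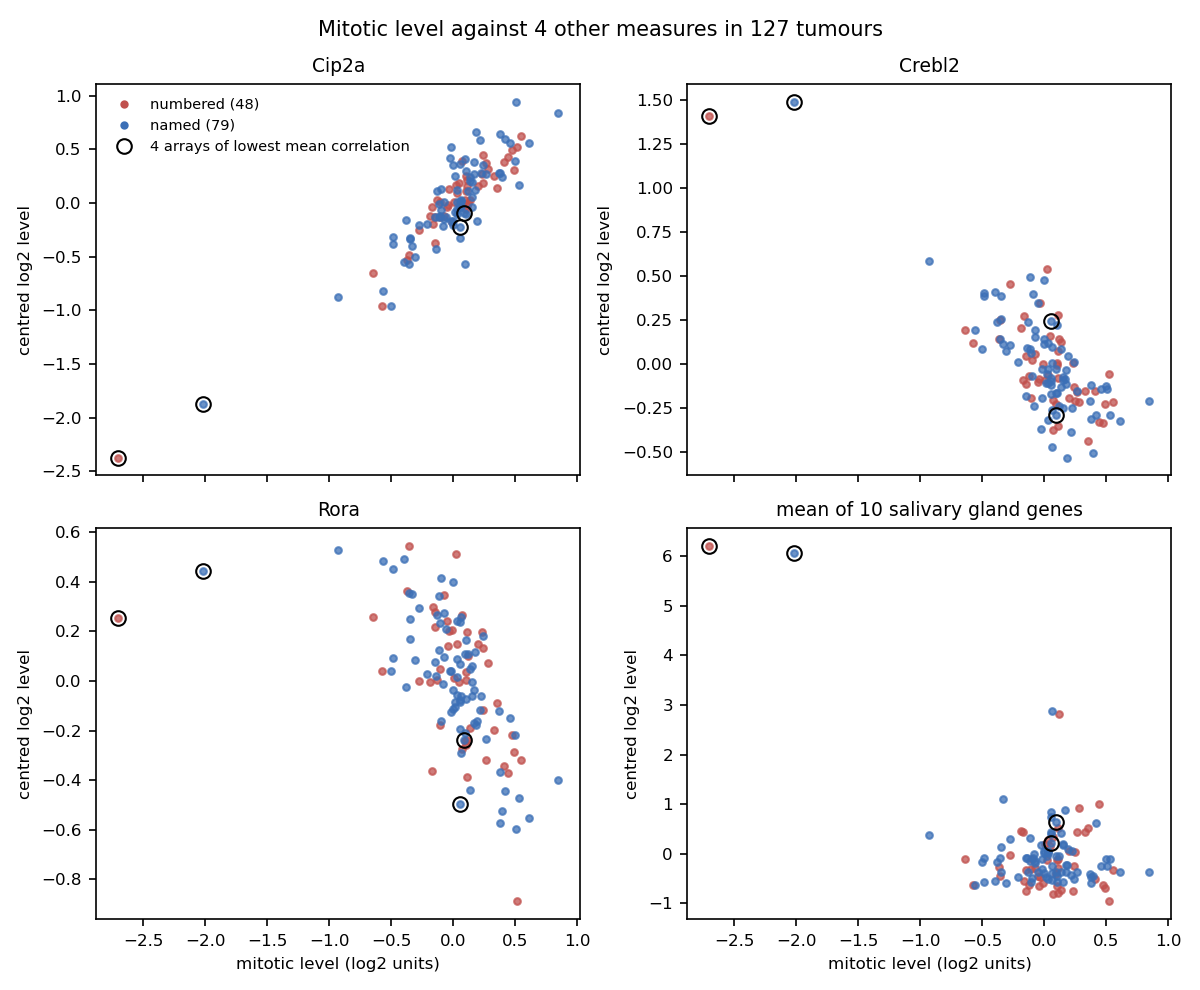
Centred log2 level of Cip2a, Crebl2 and Rora and the mean of the 10 salivary gland genes (vertical) against the mitotic level (horizontal, log2 units) in all tumours, numbered titles in red, named titles in blue, the 4 arrays of lowest mean correlation ringed. Cip2a rises along the whole range, Crebl2 and Rora fall within the main cloud, and the salivary genes reach 6.21 and 6.07 in the 2 tumours of lowest mitotic level, above the next value of 2.88.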

How the data were processed

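Tumour RNA was hybridised to Affymetrix Mouse Gene 1.0 ST arrays, and the authors summarised probes by RMA (robust multi-array average) into the deposited log2 values. The RMA version and any build were not given in the sources used here. Of 35556 probesets 21789 carried 1 gene symbol, 1621 several and 12146 none, which gave 19938 genes, each read from its probeset of highest mean. The 6 arrays of title suffix r, with lower medians (5.36 to 5.58), were left out of the main values. The number of arrays limits the precision, and p-values measure the spread between animals of 1 cross.

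Slopes on Mki67, their difference between title series and the difference in level were fitted with limma 3.58.1 (R 4.3.3) on all genes with title series as a term, Benjamini-Hochberg at 0.05. Pairs were tested by permutation within title series. Named genes were the members, up to 4 genes of each list of largest absolute r with the mitotic level, and the 10 genes most alike. The 15 most and least alike outside the members and the cell cycle lists, with a mean of at least 6, were named as well. Members and lists were chosen with earlier results of these data known, and a few list genes were named after their values were seen. In simulated data of the slope on Mki67, 49 of 50 genes of slope 0.5 and 42 of 50 of slope 0.25 were recovered. Alternatives changed the arrays used, the centring, the normalization, the probeset rule, the filter on dim genes (under 6.67), the limma trend and the reference gene.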

Additional observations from a re-analysis of the deposited data

Results flagged for a closer look

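The slope of Cenpa on Mki67 differed between title series, at 0.72 in the 48 numbered and 0.41 in the 79 named tumours, a difference of 0.31 (SE 0.091, limma adjusted p = 0.0432). It was the sole member past the threshold. The difference was 0.42 without the 4 arrays of lowest mean correlation and did not pass there (limma adjusted p = 0.768). What separates the title series is not given in the labels, and its part in this difference was not tested.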

How the results depend on the processing

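All 463 slopes of members on Mki67 under 13 alternatives rose and passed the threshold, at 0.323 to 1.03. The alternatives reused these arrays, and Mki67 and the alternative reference genes Top2a and Plk1 are members themselves. The counts over all genes moved more. The 3297 rising genes became 2066 in named titles alone and 2152 with no centring, and the 3441 falling genes became 1945 with suffix r arrays included, 2150 without the 4 arrays, 2292 in numbered titles alone and 1314 without dim genes. The split of rising against falling genes was 4708 to 2605 after the array median was subtracted, 2152 to 4066 with no centring and 3191 to 1314 without dim genes.

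The slope difference between title series held 0 members, by limma, with suffix r arrays included and 0 without the 4 arrays, and its 544 genes became 350 with suffix r arrays, 0 without the 4 arrays, 1239 after median subtraction and 307 without dim genes. Members higher in numbered titles went from 17 to 27 without the 4 arrays (where 73% of all genes were higher), 8 after quantile normalization and 8 after median subtraction, and lower members from 2 to 0 with suffix r arrays and 9 under each of both normalizations. Genes higher went from 13875 to 5442 (quantile), 4848 (median) and 6561 (without dim genes), and genes lower from 1141 to 6584, 7048 and 723.

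Mean r of pairs was 0.705 without the 4 arrays and, chosen after seeing the data, 0.672 without the 2 farthest tumours. The lowest pair was 0.19 without the 4 arrays, 0.29 in named titles, 0.265 with no centring, 0.148 without the 2 farthest tumours and 0.232 without 6 arrays. The range of the mitotic level was 1.78 without the 4 arrays, 1.78 without 6 and 2.87 in named titles. The lowest member r was 0.564 without the 4 arrays, 0.582 without 6 and 0.628 with no centring.

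Slopes of single genes that turned were those of Acvrl1 (0.0304), Itm2b (0.0386) and Slc6a8 (0.00757) in numbered titles, Clic6 (-1.17 without the 4 arrays, -0.21 in named titles, -0.0362 on Plk1), Notch3 (-0.37 without the 4 arrays, -0.0937 in named titles), Dnajc9 (-0.0159 with no centring), Lamb2 (0.00801 with suffix r arrays, 0.0247 after median subtraction), Slc6a8 (0.00405 after median subtraction), Muc19 (0.00336) and Smgc (0.00995) without the 4 arrays. The cause of these changes was not tested. No paired analysis was possible because all tumours form 1 group and replicate numbers pair none of them.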
